A study of Mus musculus with 15 samples.

Results

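The comparison described here sets PDGFra-positive cells sorted from obstructed kidneys against those from folic acid-injured kidneys at the same time, day 14. The obstructed group was the 3 arrays titled UUO 14 days, numbered 10, 11 and 12 in the labels. They were set against the 3 arrays titled Folic Acid 14 days, numbered 7, 8 and 9, so 6 of the 15 arrays of the series were compared. Every gene with a usable probe set was taken: 17097 genes were measured by a probe set whose annotation names 1 gene, the brightest on average standing for its gene, and 13523 of these were bright enough to test. The study was designed to compare fibroblast expression in chronic and acute kidney disease models.

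All mice were adult C57BL/6 and all samples were PDGFra-positive cells sorted from kidney by flow cytometry, with RNA amplified before labelling. In the UUO group 1 ureter was tied (unilateral ureteral obstruction) and cells were taken 14 days later. In the folic acid group a folic acid-induced acute injury had been given 14 days earlier. The other 9 arrays were 3 each of folic acid day 3, folic acid day 7 and uninjured kidney. Nothing in the labels says that replicate arrays were hybridised with RNA of different mice, so the tests reflect spread among the samples as labelled, part or all of which may be technical. No sex, dose or number of pooled animals was given.

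Obstruction keeps a kidney under continuous injury, whereas the tubules damaged by folic acid can regenerate. Resident fibroblasts and pericytes respond to both by becoming myofibroblasts, cells with actin stress fibres that secrete fibrillar collagens, crosslink them with lysyl oxidases and coat them with proteoglycans. Lasting matrix deposition by these cells is the hallmark of a scarred kidney, and macrophages and injured tubules are sources of the growth factors that maintain them.

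Levels are given as log2 values made by RMA (robust multi-array averaging), on which the arrays had medians of 4.93 to 5.06 and upper quartiles of 6.18 to 6.27. A difference is UUO minus folic acid day 14 on the log2 scale, with its standard error (SE) from a limma fit of all 15 arrays. Calls were made where limma's adjusted p (Benjamini-Hochberg over all genes tested) was under 0.05. Pdgfra, the receptor used for the sort, was 6.54, 5.71 and 5.71 on the UUO arrays, against 5.00, 4.25 and 6.60 on the folic acid arrays, so the groups overlapped (difference 0.70, SE 0.59, adjusted p 0.637). It lay just above the array median of 4.96 on folic acid array 7 and below that of 5.00 on array 8, so it was dim there. The stromal receptor gene Pdgfrb was bright on both sides, with 9.84, 9.62 and 9.63 on the UUO arrays and 9.27, 8.89 and 9.81 on the folic acid arrays (difference 0.37, SE 0.36, adjusted p 0.702). Tcf21, a transcription factor of kidney stroma, was 9.26, 10.59 and 10.54 on UUO arrays, against 9.47, 7.74 and 8.85 on folic acid arrays (difference 1.44, SE 0.45, adjusted p 0.111).

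The sorted material held transcripts of other cells, most of all on the folic acid side. The mean level of the 13 proximal tubule markers measured was 5.95, 5.59 and 5.58 on UUO arrays 10, 11 and 12, against 8.87, 8.69 and 7.02 on folic acid arrays 7, 8 and 9. The mean of the 25 macrophage and dendritic cell markers measured was 5.39, 5.38 and 5.60 on the UUO arrays, against 7.56, 6.38 and 7.69 on the folic acid arrays. Folic acid array 9 was thus the lowest of its group for tubule markers and the highest for macrophage markers. It also stood closer to the obstructed samples than its replicates did: across genes tested, it correlated at 0.886 to 0.906 with the UUO arrays, against 0.812 to 0.831 for folic acid arrays 7 and 8. Correlations within the groups were 0.924 to 0.927 for UUO and 0.889 to 0.901 for folic acid day 14. In these bulk samples, fewer cells of a type and less RNA per cell cannot be told apart.

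Of the 13523 genes tested, 410 (3.03%) were called. UUO samples were higher for 173 genes (1.28%) and lower for 237 (1.75%), and the 3 arrays of one group lay beyond the 3 of the other for all 410. Over all genes tested, the 3 UUO arrays lay above the 3 folic acid arrays for 1170 genes (8.65%) and below them for 1501 (11.1%), and the median difference was -0.01. These shares over all genes are the background for the counts of each gene list given below. At least 2-fold differences were seen for 150 of the higher and 215 of the lower genes, and at least 8-fold ones for 4 and 33. The highest calls included genes of the extracellular matrix, its crosslinking and Wnt signalling, and the lowest included transport and metabolic genes of the kidney tubule. Of the 410 calls 42.2% were higher, and 52.9% of 454 were after each array was centred on its median. Without folic acid array 9 the count was 698, without arrays 7 and 8 together it was 61 (10 higher, 51 lower), and without any other single array of the 6 it was 163 to 240. Among the 3 folic acid arrays, array 9 lay nearest to the UUO values for 101 of the 173 higher genes and for 138 of the 237 lower genes.

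**Figure D1:**
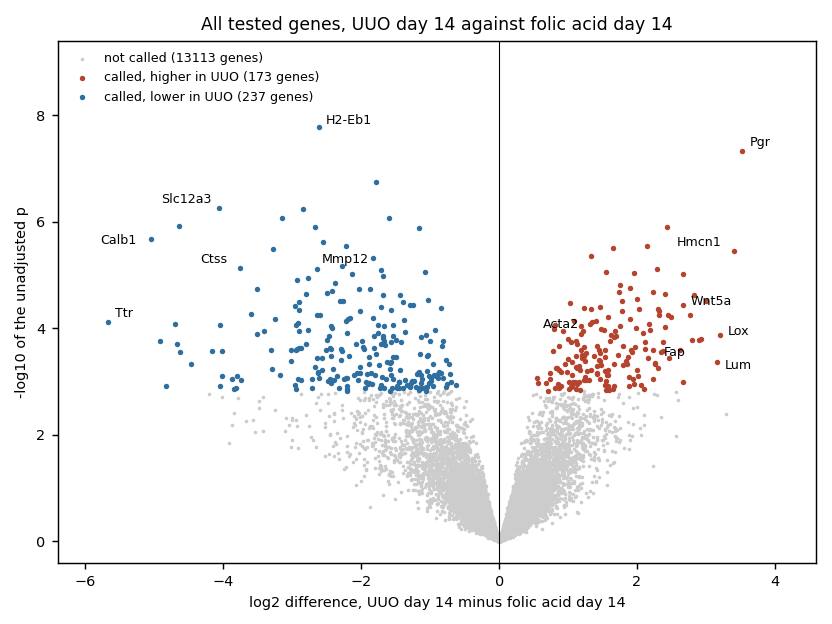
Each point is 1 of the 13523 genes tested, with the log2 difference (UUO day 14 minus folic acid day 14) on the x axis and -log10 of the unadjusted limma p on the y axis. The 173 called higher genes (red) reach a difference of 3.53 for Pgr, and the 237 called lower genes (blue) reach -5.67 for Ttr.

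The gene with the highest called difference was Pgr, the progesterone receptor, a hormone-activated transcription factor. Its level was 7.22, 8.66 and 7.74 on the UUO arrays, against 4.32, 4.35 and 4.37 on the folic acid arrays (difference 3.53, SE 0.30, adjusted p 0.000323). The folic acid values all lay below the array medians, so the gene was dim there, and the groups were far apart. Less bright probe sets of Pgr differed by 0.95 and 0.20 (limma adjusted p 0.0673 and 0.616 over all probe sets). It kept its call in every array omission tried, including that of folic acid arrays 7 and 8 together (difference 3.51, adjusted p 0.0116).

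Hmcn1 encodes hemicentin 1, a large extracellular matrix protein. It was 7.91, 7.82 and 7.37 in UUO samples, against 3.85, 3.90 and 5.12 in folic acid samples (difference 3.41, SE 0.43, adjusted p 0.00271). Gja1, which encodes the gap junction protein connexin 43, reached 9.90, 10.30 and 10.29 on the UUO arrays, against 6.79, 6.99 and 8.42 on the folic acid arrays (difference 2.76, SE 0.46, adjusted p 0.00984). The leptin receptor gene Lepr was 7.01, 8.72 and 8.88 on the UUO arrays, against 5.12, 4.99 and 6.01 on the folic acid arrays (difference 2.83, SE 0.43, adjusted p 0.00672). Of these 3 genes the groups came closest for Lepr, at UUO array 10 and folic acid array 9.

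The sialyltransferase gene St6galnac5 was 7.39, 7.52 and 8.76 in UUO samples and 5.39, 5.17 and 5.11 in folic acid samples (difference 2.67, SE 0.37, adjusted p 0.00438). Fap encodes fibroblast activation protein, a surface protease of activated fibroblasts. Its level was 7.63, 7.03 and 8.39 on the UUO arrays, against 4.73, 4.17 and 5.75 on the folic acid arrays (difference 2.80, SE 0.53, adjusted p 0.016). Srpx2, a secreted sushi-repeat protein gene, was 8.14, 8.18 and 7.55 in UUO samples and 5.67, 3.32 and 6.17 in folic acid samples (difference 2.90, SE 0.55, adjusted p 0.0159). The calls of Fap and Srpx2 were close to the threshold: Fap had an adjusted p of 0.0501 without array 7, 0.0593 without array 8 and 0.0585 without array 12, and Srpx2 had 0.0513 without array 10 and 0.0598 without array 11. The remaining genes of the top 12, Lox, Lum, P4ha3, Frzb and Wnt5a, are given with their groups.

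**Figure D2:**
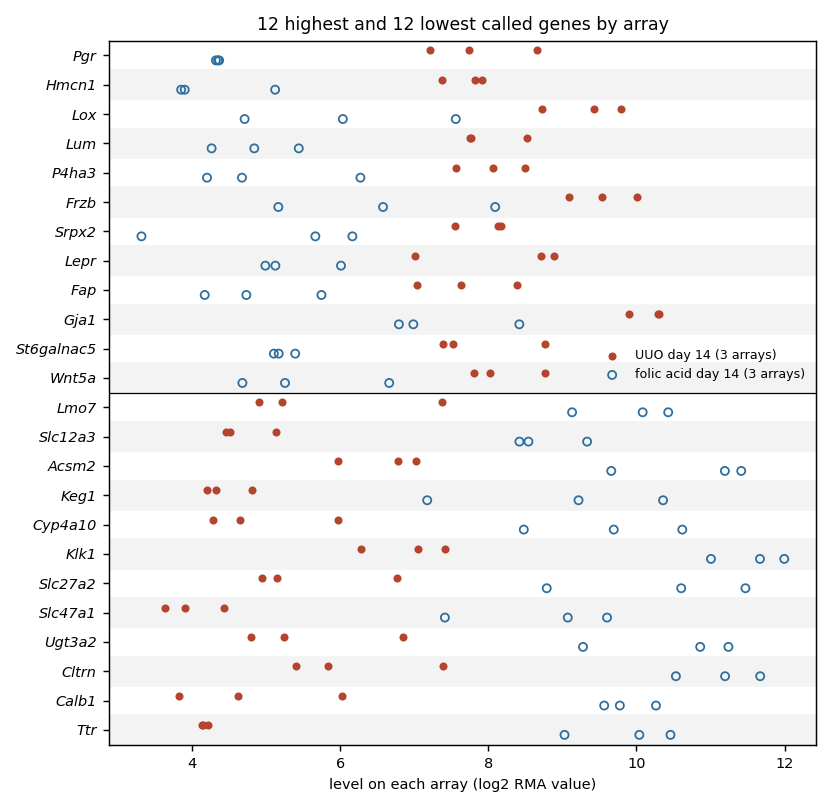
Points give the level (log2 RMA value, x axis) of the 12 highest and 12 lowest called genes on each of the 3 UUO day 14 arrays (filled, upper row of each gene) and the 3 folic acid day 14 arrays (open, lower row). The genes were chosen among called genes without overlap between groups, and for Lox the nearest values are 8.72 in UUO and 7.56 in folic acid samples.

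Many of the lowest 12 genes are known for the nephron, and none of the 12 was called between folic acid day 14 and uninjured kidney (differences -1.26 for Acsm2 to 1.77 for Ttr). Slc12a3, the thiazide-sensitive sodium chloride cotransporter of the distal convoluted tubule, was 5.13, 4.51 and 4.45 on the UUO arrays, against 8.54, 9.33 and 8.42 on the folic acid arrays and a mean of 9.44 on the uninjured arrays (UUO minus folic acid -4.07, SE 0.43, adjusted p 0.00158). Calb1, the calcium-binding protein calbindin of the same segment, was 4.62, 3.83 and 6.02 in UUO samples and 9.56, 10.26 and 9.78 in folic acid samples (difference -5.05, SE 0.61, adjusted p 0.00236). Klk1, tissue kallikrein, was 7.42, 7.05 and 6.28 in UUO samples and 11.67, 12.00 and 11.01 in folic acid samples (difference -4.64, SE 0.53, adjusted p 0.00164). The UUO arrays were low and the folic acid arrays high for each, since called genes without overlap were chosen.

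Ttr, the gene of the thyroid hormone and retinol carrier transthyretin, had the lowest called difference. It was 4.22, 4.13 and 4.15 on the UUO arrays, against 10.46, 10.04 and 9.03 on the folic acid arrays (difference -5.67, SE 0.98, adjusted p 0.0114). A second, less bright Ttr probe set differed by -1.39 (limma adjusted p 0.267 over all probe sets). Slc47a1, which exports organic cations into the tubule lumen, was 4.43, 3.91 and 3.64 in UUO samples and 9.07, 9.60 and 7.41 in folic acid samples (difference -4.70, SE 0.82, adjusted p 0.0117). Cltrn (collectrin, an amino acid transporter chaperone), Ugt3a2 (a glycosyltransferase), Slc27a2 (fatty acid import), Cyp4a10 (fatty acid hydroxylation), Keg1, Acsm2 (an acyl-CoA synthetase) and Lmo7 (an actin-associated LIM domain protein) completed the lowest 12, with differences of -4.05 to -4.92 and adjusted p of 0.0117 to 0.0447. These 7 calls were less stable, each lost when at least 1 single array was left out. That was array 11 alone for Lmo7 (adjusted p 0.0506), 3 arrays for Cltrn (8, 11 and 12, up to 0.06), 4 each for Slc27a2, Cyp4a10 and Acsm2 (7, 8, 11 and 12, up to 0.0776), and 5 for Keg1 (7, 8, 10, 11 and 12, up to 0.0955). For Ugt3a2, leaving out any of 12 arrays, 7 of them in other groups, ended it, with an adjusted p of up to 0.148.

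Of the 17 distal nephron and collecting duct markers tested, 12 were called lower in UUO samples and 0 higher, with a median difference of -1.69. Over all genes tested, 1.75% were called lower and 1.28% higher. Aqp2, the vasopressin-regulated water channel of the collecting duct, was 5.62, 5.70 and 6.07 in UUO samples and 7.57, 7.68 and 7.19 in folic acid samples (difference -1.69, SE 0.24, adjusted p 0.00454). Slc26a4, the anion exchanger pendrin, was 5.86, 4.82 and 5.24 in UUO samples and 7.50, 7.33 and 7.77 in folic acid samples (difference -2.23, SE 0.38, adjusted p 0.011). Umod and Slc12a1 of the thick ascending limb, Kcnj1, Fxyd2, Scnn1b, Scnn1g and Aqp3 were called lower too, and Slc4a1, also an erythroid marker, was called on an adjusted p of 0.0411 that any of 12 single-array omissions raised past the threshold (up to 0.121). The mean of this list was 5.61, 5.52 and 5.69 on the UUO arrays, against 7.79, 7.83 and 7.22 on the folic acid arrays. The count was 7 without array 7 or 8, 6 without array 11, 8 without array 10 or 12, 1 without arrays 7 and 8 together, and 0 in a fit that added each array's proximal tubule mean (the tubule covariate).

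Among 12 proximal tubule markers tested, 4 were called lower and 0 higher, although the median difference was -2.67 and the 3 UUO arrays lay below the 3 folic acid arrays for 9. Over all genes tested, 1.75% were called lower, and 11.1% had the UUO arrays below the folic acid arrays. The 4 were Slc27a2, Acsm2, Slc5a12 (a sodium-coupled lactate transporter) and Aqp1 (a water channel). Slc5a12 was 5.10, 4.82 and 4.89 on UUO arrays and 9.16, 9.67 and 7.39 on folic acid arrays (difference -3.80, SE 0.86, adjusted p 0.036). Aqp1 was 4.79, 4.59 and 5.08 on UUO arrays and 8.11, 7.66 and 6.81 on folic acid arrays (difference -2.71, SE 0.62, adjusted p 0.0385). Array 9 was the low folic acid array for both. Without array 9 the count of proximal tubule calls was 11, without array 10 it was 2, and without array 7, 8, 11 or 12 it was 0. The proximal tubule mean was 5.71 ± 0.21 in UUO samples, against 8.61 ± 0.53 in uninjured kidney (SD, n = 3 each).

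**Figure D3:**
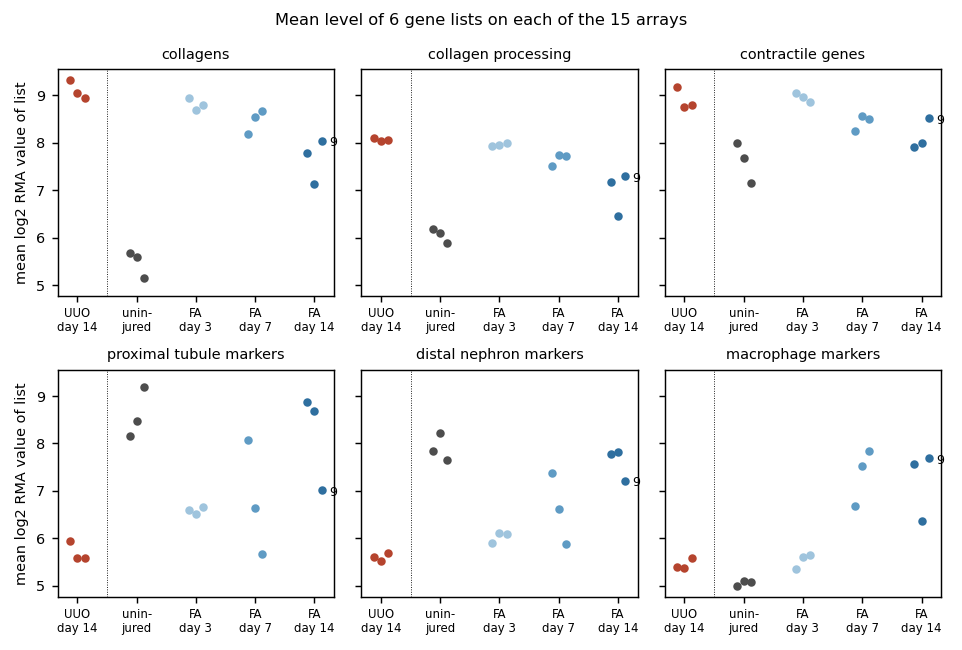
Each point is the mean log2 RMA value (y axis) of a gene list on 1 array; UUO day 14 stands left of the dotted line, and uninjured kidney and the folic acid days right of it. Collagen lists are highest in UUO samples (9.10 on average), tubule lists are near the uninjured level on folic acid day 14 arrays 7 and 8, and array 9 of that group is marked.

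The list of fibrillar and fibril-associated collagens had the most calls on the higher side. It also held collagen VI (Col6a1, Col6a2, Col6a3) and collagen VIII (Col8a1, Col8a2), which are neither. Of these, only Col8a1 was not called. Of 15 collagen genes tested, 10 were called higher in UUO samples and 0 lower, set against 1.28% and 1.75% of all genes. All 15 differences were positive (0.92 to 2.18, median 1.48), and the 3 UUO arrays lay above the 3 folic acid arrays for 14. The mean level of the list was 9.10 ± 0.20 in UUO samples and 7.65 ± 0.47 in folic acid samples (SD, n = 3 each), with 5.47 ± 0.29 in uninjured kidney.

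Col6a3, a chain of the beaded-filament collagen VI, was 10.61, 10.38 and 10.24 on the UUO arrays, against 8.50, 7.12 and 9.06 on the folic acid arrays (difference 2.18, SE 0.39, adjusted p 0.0129). Its partner chain gene Col6a1 was 10.76, 10.75 and 10.78 on the UUO arrays, against 9.34, 8.85 and 9.65 on the folic acid arrays (difference 1.48, SE 0.26, adjusted p 0.0127). Col8a2, a short-chain network collagen, was 7.34, 6.35 and 7.42 in UUO samples and 5.34, 4.61 and 5.31 in folic acid samples (difference 1.95, SE 0.27, adjusted p 0.00438). These 3 calls held in each single-array omission.

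Col1a1, a chain of the main fibrillar collagen of scars, was high everywhere in injured kidney: 12.50, 12.10 and 12.08 in UUO samples and 11.25, 10.62 and 11.64 in folic acid samples (difference 1.05, SE 0.22, adjusted p 0.0254). That call was lost without any 1 of arrays 7, 8, 10, 11 and 12, with an adjusted p of 0.0539 to 0.084. Col3a1, its frequent partner in fibrils, was 12.19, 12.22 and 12.27 in UUO samples and 11.31, 10.68 and 11.89 in folic acid samples, without overlap but not called (difference 0.94, SE 0.42, adjusted p 0.273). A second, less bright Col3a1 probe set differed by 1.99, with a limma adjusted p of 0.042 over all probe sets. Col16a1 was called (1.18, adjusted p 0.0138), though not without array 8 (0.0511) or array 10 (0.0513), as were Col1a2, Col5a1, Col5a2, Col6a2 and Col14a1 (1.42 to 2.00). Col3a1 (by its brightest probe set), Col5a3, Col8a1, Col11a1 and Col12a1 did not pass.

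The collagen count depended on the arrays fitted. It was 0 with only the 6 arrays compared and 1 at an adjusted p under 0.01. It was 4 without folic acid array 8, 7 without array 7, 10 without array 9, 3 to 6 without a UUO array, and 1 without arrays 7 and 8 together, where the lone array 9 was assumed to vary like the other groups. The fit with the tubule covariate gave 0, and one that added each array's macrophage mean (the macrophage covariate) gave 9. The tubule means of the groups do not overlap, so that fit compares values beyond those measured, and the part of tubule transcripts in the collagen differences was not otherwise tested.

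A collagen promoter is shown for its gene's large difference, and it holds a CArG box, the letters bound by serum response factor. The box was searched as CC, then 6 letters of which at most 1 is G or C, then GG, a form that reads the same on both strands. Among the other called collagens with a matched promoter, Col1a2 held such a box, and Col5a1, Col6a1, Col6a2, Col8a2 and Col16a1 did not. The 250 bases before the start of Col6a3 (RefSeq, GRCm38.p6, chr1:90843972-90844221, minus strand, written 5′ to 3′ on the gene's strand) hold 1 such box, in capitals, beginning 224 bases before the start.
Col6a3: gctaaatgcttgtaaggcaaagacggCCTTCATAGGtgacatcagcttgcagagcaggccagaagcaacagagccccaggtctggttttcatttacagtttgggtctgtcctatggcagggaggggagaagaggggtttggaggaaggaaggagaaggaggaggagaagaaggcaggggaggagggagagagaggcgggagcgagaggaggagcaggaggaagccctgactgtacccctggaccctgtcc

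Enzymes that modify and crosslink collagen split into a small set of large differences and a majority of small ones. Of 17 tested, 4 were called higher and 0 lower, with a median of 0.51. Lox, lysyl oxidase, which oxidises lysines so that collagen and elastin crosslink, was 9.79, 9.42 and 8.72 on the UUO arrays, against 6.04, 4.71 and 7.56 on the folic acid arrays (difference 3.21, SE 0.59, adjusted p 0.0143). Its relative Loxl2 was 8.49, 8.87 and 8.36 on the UUO arrays, against 5.69, 4.98 and 7.18 on the folic acid arrays (difference 2.62, SE 0.52, adjusted p 0.0189). Loxl1, which acts on elastin, was 10.43, 9.92 and 10.79 in UUO samples and 8.60, 6.96 and 8.45 in folic acid samples (difference 2.37, SE 0.45, adjusted p 0.0162).

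P4ha3, a catalytic subunit of prolyl 4-hydroxylase, was 8.06, 7.56 and 8.50 in UUO samples and 4.20, 4.67 and 6.27 in folic acid samples (difference 2.99, SE 0.47, adjusted p 0.00779), and its call held in each single-array omission. With only the 6 arrays compared in the fit, neither P4ha3 nor any other gene of this list was called. The Lox call was lost without array 10 (0.0513) or 11 (0.0512), that of Loxl1 without array 10 (0.0505) or 12 (0.0592), and that of Loxl2 without array 7, 8, 10 or 11 (0.0519 to 0.0714). The lysyl hydroxylase gene Plod2 (1.07), the collagen chaperone gene Serpinh1 (0.83) and the C-proteinase gene Bmp1 (0.32) had positive differences that were not called. The count of 4 became 1 without array 10, 2 without array 11, 0 without arrays 7 and 8, and 0 with the tubule covariate.

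Among 17 matricellular proteins and glycoproteins, secreted proteins that link matrix to cells, 5 were called higher and 0 lower, with a median of 1.24. Thbs2, thrombospondin 2, was 10.45, 9.20 and 8.68 on the UUO arrays, against 7.29, 7.15 and 7.37 on the folic acid arrays (difference 2.17, SE 0.38, adjusted p 0.0117). Thbs4 was 5.92, 7.53 and 6.84 in UUO samples and 5.14, 4.83 and 5.07 in folic acid samples (difference 1.75, SE 0.31, adjusted p 0.0117). Both thrombospondins had tight folic acid values. With only the 6 arrays compared in the fit the list had 0 calls, but both genes kept their calls in each single-array omission. Ccn4 (1.93, adjusted p 0.0197) and Fndc1 (2.25, adjusted p 0.0269) lost theirs in 4 single-array omissions each, among them those of arrays 7, 8 and 10, with an adjusted p of up to 0.0738 and 0.0966, and Ccn5 passed at 0.0394. The list's count fell to 2 without array 7 or array 8, to 3 without array 10 or array 11, and to 0 without arrays 7 and 8 or with the tubule covariate.

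Several well-known matrix genes of scarring did not pass. Fn1, fibronectin, was 11.22, 10.59 and 10.41 in UUO samples and 9.77, 8.87 and 10.25 in folic acid samples (difference 1.11, SE 0.34, adjusted p 0.0991). Postn, periostin, was 11.09, 8.79 and 7.74 in UUO samples and 7.17, 5.10 and 7.67 in folic acid samples (difference 2.56, SE 0.85, adjusted p 0.132). Tnc, tenascin C, was 10.45, 10.34 and 10.24 in UUO samples and 9.10, 7.20 and 10.15 in folic acid samples (difference 1.52, SE 0.57, adjusted p 0.184). In all 3 genes the UUO arrays lay above the folic acid arrays, but folic acid array 9 came close to the lowest UUO array.

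Proteoglycans and hyaluronan genes numbered 19 tested, with 4 called higher and 1 lower (median 0.64). Lum, the collagen-binding small leucine-rich proteoglycan lumican, was 8.53, 7.75 and 7.76 on the UUO arrays, against 4.84, 4.26 and 5.44 on the folic acid arrays (difference 3.16, SE 0.67, adjusted p 0.0256). Dcn, its relative decorin, was 11.02, 11.21 and 10.88 on the UUO arrays, against 9.43, 7.89 and 9.74 on the folic acid arrays (difference 2.02, SE 0.46, adjusted p 0.0358). Vcan, the large hyaluronan-binding proteoglycan versican, was 9.83, 8.88 and 8.88 in UUO samples and 7.00, 6.42 and 7.20 in folic acid samples (difference 2.32, SE 0.39, adjusted p 0.00984).

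The groups were apart for all 3, but only Vcan kept its call in each single-array omission. Lum lost it without any 1 of arrays 7, 8, 10, 11 and 12 (0.0593 to 0.0897), and Dcn without any of those or of 4 arrays of other groups (up to 0.114). Fmod, fibromodulin, passed by a narrow margin (0.71, adjusted p 0.0499). Sdc4, the cell-surface syndecan 4, went the other way, with 7.14, 7.38 and 6.97 in UUO samples and 9.50, 8.61 and 8.39 in folic acid samples (difference -1.67, SE 0.29, adjusted p 0.0117). Its second probe set differed by -0.03 (limma adjusted p 0.992 over all probe sets). Biglycan (Bgn, 0.64) and the hyaluronan receptor gene Cd44 (0.21) did not pass. The higher count was 1 or 2 without array 7, 8, 10, 11 or 12, and 0 without arrays 7 and 8 or with the tubule covariate.

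Elastic fibre and microfibril genes gave 2 calls of 15 tested, both higher, with a median of 0.87. Mfap4, a microfibril-associated glycoprotein, was 10.64, 10.61 and 10.87 on the UUO arrays, against 8.56, 7.48 and 8.64 on the folic acid arrays (difference 2.48, SE 0.42, adjusted p 0.0101). Fbln1, fibulin 1, was 9.79, 10.07 and 9.45 in UUO samples and 8.92, 7.87 and 8.27 in folic acid samples (difference 1.42, SE 0.32, adjusted p 0.0336), a call lost without any of 5 of the 6 arrays (8 to 12, up to 0.121). The count was 4 without array 7, 1 without array 8, 10, 11 or 12, and 0 without arrays 7 and 8 or with either covariate, so Mfap4 was not called in those 3 fits. Elastin itself (Eln) differed by 0.58 and was not called. Basement membrane genes, which build the sheets under epithelium and endothelium, had 0 limma calls of 17 (9 at an unadjusted p under 0.05) and a median of 0.05. Lama2 (1.37, adjusted p 0.0947) and Col15a1 (1.16, adjusted p 0.0742) were at the positive end of that list, and Col4a5 (-1.22) at the negative end.

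**Figure D4:**
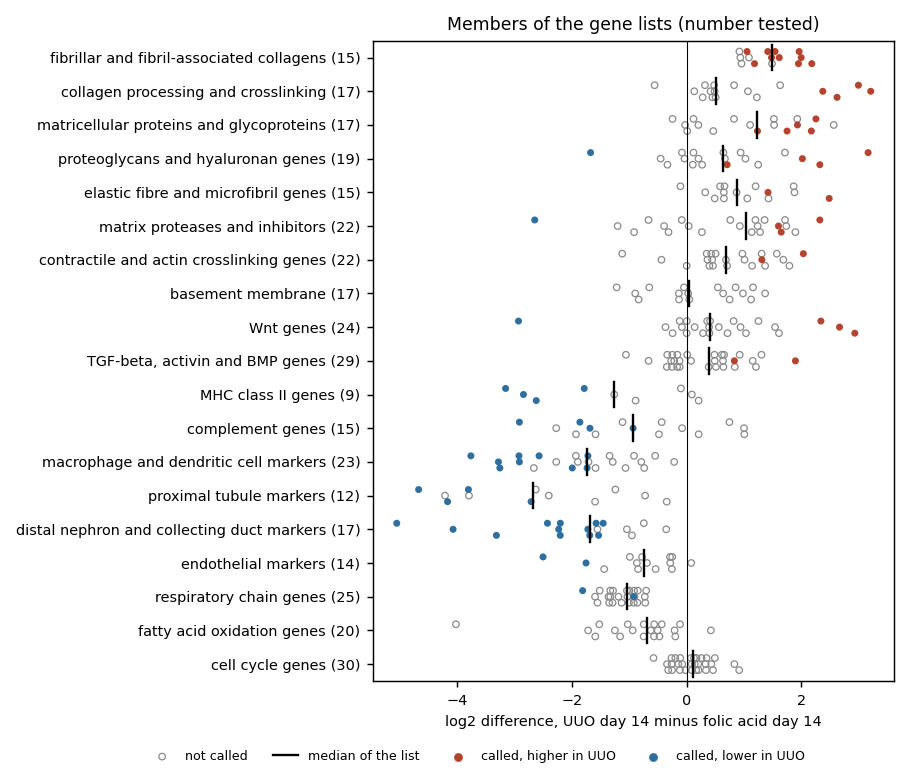
Each point is the log2 difference (UUO day 14 minus folic acid day 14, x axis) of 1 member of a gene list, filled where called; black bars are list medians and the number of genes tested stands after each name. Collagens lie at 0.92 to 2.18, macrophage and tubule markers lie below 0, and cell cycle genes lie around 0.

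Matrix proteases and their inhibitors moved in both directions: 3 of 22 were called higher and 1 lower, with a median of 1.03. Adamts4, which cleaves versican and aggrecan, was 7.82, 8.37 and 7.73 on the UUO arrays, against 5.78, 5.29 and 5.88 on the folic acid arrays (difference 2.32, SE 0.38, adjusted p 0.00881). Mmp19 (1.60, adjusted p 0.016) and the collagen-degrading cathepsin gene Ctsk (1.65, adjusted p 0.0475) were called with less margin: Mmp19 was lost without array 8, 10 or 11 (up to 0.0628) and Ctsk without any of 10 arrays, 5 of them in other groups (up to 0.14). The higher count was 8 without array 9 and 1 without array 8, 10 or 11. Mmp12, the macrophage metalloelastase, was 3.72, 3.78 and 3.83 in UUO samples, as dim as in uninjured kidney (mean 3.55), and 6.64, 5.31 and 7.32 in folic acid samples (difference -2.65, SE 0.36, adjusted p 0.00437). It stayed called without arrays 7 and 8 (-3.54, adjusted p 3.65e-05) and with the tubule covariate (-3.46, adjusted p 0.0331), but not with the macrophage covariate (-1.08, adjusted p 0.247) or with only the 6 arrays fitted (adjusted p 0.0941). Timp1, an inhibitor of metalloproteinases that is strongly induced in injured kidney, overlapped, with 9.15, 9.65 and 9.61 in UUO samples and 9.90, 8.16 and 9.54 in folic acid samples (difference 0.27, SE 0.38, adjusted p 0.819).

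Contractile and actin-crosslinking genes, the stress-fibre part of the myofibroblast programme, were called for 2 of 22, both higher, with a median of 0.69. The 3 UUO arrays lay above the 3 folic acid arrays for 15 of the 22, against 8.65% of all genes. Acta2, smooth muscle actin, was 12.14, 11.94 and 11.97 on the UUO arrays, against 10.07, 10.79 and 11.26 on the folic acid arrays and 8.29 on average in uninjured kidney (UUO minus folic acid 1.31, SE 0.23, adjusted p 0.0117). It kept its call in each single-array omission, but not when its probe sets were averaged, since its second probe set differed by 0.22, nor with only the 6 arrays fitted (adjusted p 0.137), the tubule covariate (0.492), the macrophage covariate (0.209) or arrays 7 and 8 left out (0.133). Palld, the actin-bundling protein palladin, was 10.92, 10.61 and 10.42 in UUO samples and 8.20, 8.20 and 9.44 in folic acid samples (difference 2.04, SE 0.33, adjusted p 0.00854). Tropomyosins Tpm1 (1.31), Tpm2 (1.37) and Tpm4 (1.57), Actn1 (1.01) and Myh9 (0.97) were positive without overlap but not called, and desmin (Des, -1.12) and Myh11 (-0.44) were negative. The count was 6 without array 9, and 0 without arrays 7 and 8 or with the tubule covariate.

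The Acta2 promoter is shown as that of the standard myofibroblast marker. Its 250 bases before the start (RefSeq, GRCm38.p6, chr19:34255374-34255623, minus strand, on the gene's strand) hold 2 CArG boxes, beginning 84 and 34 bases before the start, and 1 GGAATG, the core letters bound by TEAD factors, searched on both strands and beginning 146 bases before it, all in capitals.
Acta2: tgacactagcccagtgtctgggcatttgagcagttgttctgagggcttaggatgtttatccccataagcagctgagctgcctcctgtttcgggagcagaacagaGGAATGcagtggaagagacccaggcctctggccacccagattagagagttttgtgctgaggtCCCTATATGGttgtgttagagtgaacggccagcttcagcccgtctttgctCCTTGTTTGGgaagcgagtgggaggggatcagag

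Of the promoters matched, a CArG box was found in 14 of 127 genes called higher (11.0%), 13 of 178 called lower (7.3%) and 1044 of 10815 tested (9.65%). GGAATG was found in 15.0% of the promoters of genes called higher, 10.7% of those called lower and 13.7% of all tested.

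Signalling genes contributed single members rather than whole lists. Of 24 Wnt genes tested, 3 were called higher and 1 lower (median 0.40). Wnt5a, a ligand that mostly acts without beta-catenin, was 8.02, 8.77 and 7.80 on the UUO arrays, against 4.68, 5.25 and 6.66 on the folic acid arrays (difference 2.67, SE 0.43, adjusted p 0.00832). Among receptors, Fzd2 was 8.82, 9.39 and 9.15 in UUO samples and 6.93, 5.68 and 7.73 in folic acid samples (difference 2.34, SE 0.47, adjusted p 0.0199). The groups were apart for both.

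Of 2 secreted Wnt-binding proteins, one was higher and the other lower. Frzb was 9.09, 10.01 and 9.53 on the UUO arrays, against 6.58, 5.17 and 8.09 on the folic acid arrays (difference 2.93, SE 0.55, adjusted p 0.0157). Sfrp2 was 8.80, 6.98 and 8.37 on the UUO arrays, against 10.41, 11.57 and 10.95 on the folic acid arrays and 12.12 on average in uninjured kidney (UUO minus folic acid -2.93, SE 0.58, adjusted p 0.0189). The Frzb call was lost without array 11 (0.0624), that of Sfrp2 without array 8 (0.0721) or 11 (0.0689), and that of Fzd2 without array 7, 8, 11 or 12 (up to 0.0752). The beta-catenin target Axin2 differed by 0.39 and was not called. With only the 6 arrays compared in the fit, the Wnt list had 0 calls. The higher count was 1 without array 11, and 0 without arrays 7 and 8 or with the tubule covariate.

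In the TGF-beta, activin and BMP list, 2 of 29 were called higher and 0 lower (median 0.39). Inhba, the subunit that forms activin A, was 8.52, 8.44 and 8.59 on the UUO arrays, against 6.64, 6.05 and 7.17 on the folic acid arrays (difference 1.90, SE 0.32, adjusted p 0.0108). Smad4, the shared signal transducer, was 8.73, 9.02 and 8.45 in UUO samples and 7.60, 8.21 and 7.90 in folic acid samples (difference 0.83, SE 0.18, adjusted p 0.03), a call lost without array 7, 10, 11 or 14 (up to 0.113). The ligand gene Tgfb1 differed by 0.08, and its receptor gene Tgfbr1, at 1.21, was not called. With only the 6 arrays compared in the fit, the list had 0 calls. The count was 4 without array 9, 1 without array 7 or 10, and 0 without arrays 7 and 8 or with the tubule covariate.

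Of 22 PDGF, FGF and IGF genes, 2 were called higher and 1 lower (median 0.10). Pdgfrl, a receptor-like protein, was 8.04, 7.95 and 7.96 on the UUO arrays, against 6.52, 5.89 and 6.33 on the folic acid arrays (difference 1.73, SE 0.26, adjusted p 0.00672). Igfbp2, which binds insulin-like growth factors, was 8.49, 8.09 and 7.65 in UUO samples and 7.12, 5.60 and 6.42 in folic acid samples (difference 1.70, SE 0.31, adjusted p 0.0145). It was lost without array 10 (0.0529) or 11 (0.051), and kept without arrays 7 and 8 (adjusted p 0.0406). Fgf1 was 6.16, 5.93 and 5.80 in UUO samples and 7.05, 7.68 and 7.28 in folic acid samples (difference -1.38, SE 0.24, adjusted p 0.011).

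Among 11 retinoid genes the call was Aldh1a2, which makes retinoic acid: 10.52, 11.06 and 10.90 in UUO samples and 9.73, 9.11 and 9.68 in folic acid samples (difference 1.32, SE 0.21, adjusted p 0.00854). Of 11 hedgehog genes, limma called 0, with 1 at an unadjusted p under 0.05 (Cdon 1.19, Gas1 0.73, Gli1 0.04). Stromal transcription factors had 3 calls of 19, all higher: Pgr, Prrx1 and Snai2. Prrx1, a mesenchymal homeobox gene, was 7.95, 8.03 and 8.78 on the UUO arrays, against 5.71, 6.02 and 7.11 on the folic acid arrays (difference 1.98, SE 0.39, adjusted p 0.0186). It was lost without array 7, 8 or 12 (up to 0.0674), and Snai2 (1.55, adjusted p 0.0396) without any of 9 arrays, 4 of them in other groups (up to 0.133). The count was 6 without array 9 and 1 without array 7, 8 or 12. Runx1 (1.95) and Twist1 (0.63) were not called.

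Resident and adventitial fibroblast markers split, with 3 of 18 called higher and 2 lower (median 0.55). Besides Lum and Dcn, the higher call was Cxcl12, a stromal chemokine, at 7.80, 8.34 and 9.14 on the UUO arrays, against 6.80, 5.56 and 6.58 on the folic acid arrays (difference 2.12, SE 0.40, adjusted p 0.0162). Cd34, a marker of adventitial fibroblasts that endothelium also carries, was 5.58, 5.53 and 4.47 on the UUO arrays, against 7.19, 7.31 and 8.62 on the folic acid arrays (difference -2.52, SE 0.50, adjusted p 0.0189). Nt5e, an ecto-nucleotidase of cortical kidney fibroblasts, was 6.54, 5.46 and 6.42 in UUO samples and 7.77, 8.76 and 7.83 in folic acid samples (difference -1.98, SE 0.39, adjusted p 0.0184). Single omissions ended Cxcl12 (array 8, 11 or 12, up to 0.0572), Nt5e (array 8 or 11, up to 0.068) and Cd34 (array 12, 0.0687). The count of higher genes was 0 without array 8, 11 or 12 and 1 without array 7 or 10. Proximal tubule also expresses Nt5e.

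Macrophage and antigen-presentation genes were lower in UUO samples. Of 23 macrophage and dendritic cell markers tested, 9 were called lower and 0 higher; all 23 differences were negative (median -1.73), and the 3 UUO arrays lay below the 3 folic acid arrays for 17, against 11.1% of all genes. Ctss, the lysosomal protease cathepsin S, was 6.76, 6.36 and 7.46 on the UUO arrays, against 10.69, 9.69 and 11.47 on the folic acid arrays (difference -3.76, SE 0.51, adjusted p 0.00437). Lyz2, the lysozyme of myeloid cells, was 7.30, 7.93 and 7.57 on the UUO arrays, against 10.55, 10.15 and 10.87 on the folic acid arrays (difference -2.92, SE 0.51, adjusted p 0.0114). Uninjured kidney averaged 4.34 for Lyz2, so both injured groups were above it.

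Cd52, a leukocyte surface glycoprotein, was 6.01, 5.37 and 5.59 in UUO samples and 9.54, 7.94 and 9.33 in folic acid samples (difference -3.28, SE 0.41, adjusted p 0.00258). Tyrobp, the signalling adaptor of myeloid receptors, was 7.00, 5.68 and 6.89 in UUO samples and 10.43, 8.51 and 10.38 in folic acid samples (difference -3.25, SE 0.56, adjusted p 0.0108). Folic acid array 8 was the lowest of its group in each of these 4 genes, yet above every UUO array. Laptm5, Fcer1g, Mpeg1, Cd14 and C1qc were the other calls, and the pan-macrophage genes Adgre1 (-1.71), Csf1r (-1.06) and Cd68 (-0.92) were not called.

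The macrophage count was 17 without array 8, and 5 to 8 without any other single array of the 6. It was 8 without arrays 7 and 8, 2 with the tubule covariate and 0 with the macrophage mean itself as covariate. The promoter of Lyz2 is shown for a myeloid gene called lower, and AGGAAGT, letters bound by the myeloid factor PU.1 and other ETS factors, was searched on both strands. Its 250 bases before the start (RefSeq, GRCm38.p6, chr10:117282273-117282522, minus strand, on the gene's strand) hold the motif's reverse complement once, in capitals, beginning 100 bases before the start. AGGAAGT was found in 7.87% of the promoters of genes called higher, 10.7% of those called lower and 8.77% of all tested. Among the other called macrophage markers with a matched promoter, C1qc held it, and Ctss, Laptm5, Fcer1g and Mpeg1 did not.
Lyz2: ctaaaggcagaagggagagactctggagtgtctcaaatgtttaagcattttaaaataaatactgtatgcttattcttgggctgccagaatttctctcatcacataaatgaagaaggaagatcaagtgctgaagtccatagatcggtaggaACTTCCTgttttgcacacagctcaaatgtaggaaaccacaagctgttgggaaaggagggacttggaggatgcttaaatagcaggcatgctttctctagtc

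MHC class II genes, which present antigen to T helper cells, held the smallest adjusted p of the comparison. Of 9 tested, 4 were called lower and 0 higher (median -1.26), against 1.75% and 1.28% of all genes. H2-Eb1 was 7.45, 7.64 and 7.62 on the UUO arrays, against 10.35, 9.72 and 10.50 on the folic acid arrays (difference -2.62, SE 0.20, adjusted p 0.000229). H2-Ab1 was 6.77, 6.63 and 6.63 on the UUO arrays, against 10.26, 8.89 and 10.34 on the folic acid arrays (difference -3.15, SE 0.35, adjusted p 0.00164). Cd74, the invariant chain, was 7.77, 8.32 and 7.00 in UUO samples and 10.53, 10.04 and 11.05 in folic acid samples (difference -2.84, SE 0.30, adjusted p 0.00158).

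H2-Aa was 8.99, 9.09 and 9.64 in UUO samples and 10.87, 11.00 and 11.20 in folic acid samples (difference -1.78, SE 0.17, adjusted p 0.000799), with 6.61 on average in uninjured kidney. All 4 genes were called in each single-array omission and without arrays 7 and 8. With the tubule covariate 2 were called, H2-Eb1 and H2-Aa, and with the macrophage covariate 3. With only the 6 arrays fitted 3 were called, all but Cd74. The class II regulator Ciita was near the array median and differed by 0.21. These genes are expressed by macrophages and dendritic cells, whose markers moved the same way. The macrophage means of the groups do not overlap, so the fit with that covariate compares values beyond those measured. The part of those cells in the MHC class II difference was not otherwise tested.

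The complement list had 4 calls of 15, all lower (median -0.93), while the factor H-related gene Cfhr2, outside it, was called higher (1.65). Cfp, properdin, was 5.81, 5.84 and 5.41 on the UUO arrays, against 7.69, 7.30 and 7.12 on the folic acid arrays (difference -1.68, SE 0.26, adjusted p 0.00672). The receptor gene C3ar1 (-0.93, adjusted p 0.0129) held in each single-array omission, whereas Cfi, factor I (-1.86, adjusted p 0.0336), was lost in 6 and C1qc (-2.91, adjusted p 0.0385) in 9, with an adjusted p of up to 0.112 and 0.13. The stromal members C1s1 (1.00) and Serping1 (1.01) had positive differences and were not called. The count was 5 without array 8, 2 without array 7, 10, 11 or 12, 1 without arrays 7 and 8, and 0 with either covariate.

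Of 21 listed chemokines and cytokines, 1 was called higher (Cxcl12) and 2 lower, and Ccl6, outside the list, was called lower (-2.43). Ccl9 was 6.12, 6.64 and 6.03 on the UUO arrays, against 8.41, 8.88 and 10.22 on the folic acid arrays (difference -2.90, SE 0.46, adjusted p 0.00784). Ccl5, a T cell attractant, was 4.89, 5.51 and 4.98 in UUO samples and 6.73, 6.26 and 6.58 in folic acid samples (difference -1.39, SE 0.22, adjusted p 0.00779). Both held in each single-array omission, although the lower count was 5 without array 8. With the macrophage covariate neither was called (adjusted p 0.26 for Ccl9 and 0.347 for Ccl5), and the list had 4 calls higher and 0 lower. Neither was called with only the 6 arrays fitted (0.0721 and 0.0701). Ccl2, the monocyte attractant, overlapped, with 6.32, 5.85 and 5.27 in UUO samples and 7.44, 5.65 and 5.43 in folic acid samples (difference -0.36, SE 0.60, adjusted p 0.859). Of 19 listed interferon response genes limma called 0, with 2 at an unadjusted p under 0.05 (median 0.05), with Rsad2 nearest (-1.32, adjusted p 0.0525). Cmpk2, an interferon-induced gene outside that list, was called lower (-0.95).

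Endothelial markers gave 2 calls of 14, both lower (median -0.73), against 1.75% of all genes called lower. The 3 UUO arrays lay below the 3 folic acid arrays for 10, against 11.1% of all genes. Plvap, a protein of capillary fenestrae, was 5.51, 6.57 and 7.48 on the UUO arrays, against 9.36, 8.94 and 8.76 on the folic acid arrays (difference -2.50, SE 0.47, adjusted p 0.016). Sox17, an endothelial transcription factor, was 4.45, 4.93 and 5.09 in UUO samples and 6.56, 6.37 and 6.79 in folic acid samples (difference -1.75, SE 0.32, adjusted p 0.0136). Both calls sat near the threshold: Plvap had 0.0563 without array 7 and 0.0512 without array 11, and Sox17 had 0.051 without array 10. Of 12 pericyte and vascular smooth muscle markers, Notch3 was called lower (-1.19, adjusted p 0.0352, lost in 6 single-array omissions, up to 0.107), while Rgs5 (-1.45) was not called. The Notch3 call was also lost when its probe sets were averaged, and its second probe set differed by 0.07.

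Podxl was the 1 call among 7 podocyte markers, lower at 7.14, 7.17 and 6.48 in UUO samples, against 8.75, 9.10 and 8.98 in folic acid samples (difference -2.01, SE 0.33, adjusted p 0.00881); endothelium carries this sialomucin too. Of 12 injured or simple epithelium markers, Cdh1 was called lower. Of 8 lymphocyte and 5 neutrophil markers limma called 0, with 1 of each at an unadjusted p under 0.05. Among 18 integrins and cadherins, the mesenchymal cadherin Cdh11 was higher at 11.08, 10.87 and 10.99 in UUO samples, against 9.48, 8.97 and 10.35 in folic acid samples (difference 1.38, SE 0.28, adjusted p 0.022). The epithelial genes Cdh16 (-2.80, adjusted p 0.00672), Cdh1 (-2.90, adjusted p 0.0129) and Itga6 (-1.81, adjusted p 0.0144) were lower. Cdh11 was lost without any 1 of arrays 7, 8, 10, 11 and 12 (up to 0.073), Cdh1 without array 11 (0.0539), and Itga6 without array 8 or 11 (up to 0.0598).

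The respiratory chain list had differences of one sign but few calls. All 25 of its genes tested had negative differences (-0.70 to -1.81, median -1.04). The 3 UUO arrays lay below the 3 folic acid arrays for 23, against 11.1% of all genes. Of the 25 genes, 2 were called lower, against 1.75% of all genes. Cyc1, cytochrome c1, was 7.42, 7.33 and 7.42 on the UUO arrays, against 9.92, 8.99 and 8.69 on the folic acid arrays (difference -1.81, SE 0.35, adjusted p 0.0186). Cox6a1, a cytochrome oxidase subunit, was 11.04, 10.93 and 10.87 in UUO samples and 12.08, 11.97 and 11.55 in folic acid samples (difference -0.92, SE 0.21, adjusted p 0.036). The list's count was 11 without array 9, 5 after quantile normalization, and 0 without array 7, 10, 11 or 12. Further respiratory chain and ATP synthase genes, outside the list, were called lower. Among them were Ndufb10 (-1.70), Ndufa12 (-1.59), Ndufb4 (-1.53), Atp5g1 (-2.47) and Atp5g3 (-1.13). Proximal tubule is among the most mitochondria-rich tissues, and its markers moved in the same direction. Their part in this result was not tested. The fit with the tubule covariate gave 0 calls in the list, but only 13 over all genes. It compares values beyond those measured, since the tubule means of the groups do not overlap.

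Of 20 fatty acid oxidation genes limma called 0, with 7 at an unadjusted p under 0.05 (median -0.68). The count lower was 4 without folic acid array 9 and 5 with the macrophage covariate. The nearest included Acaa1b, a peroxisomal thiolase, at 4.55, 5.01 and 6.36 in UUO samples and 10.17, 10.03 and 7.76 in folic acid samples (difference -4.02, SE 1.03, adjusted p 0.0562). Among 21 glycolysis and hypoxia genes, Aldoa, aldolase A, was called lower at 9.60, 9.57 and 9.69 in UUO samples, against 10.82, 10.79 and 10.47 in folic acid samples (difference -1.07, SE 0.15, adjusted p 0.00438). Ndrg1 was the other (-2.21, adjusted p 0.0447), lost in 11 single-array omissions (up to 0.152).

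The cell cycle list gave no calls, though Ccnd1, the cyclin D1 gene, which was not in it, was called lower (-1.59). Of its 30 genes tested, limma called 0, with 2 at an unadjusted p under 0.05 (median 0.11, from -0.57 for Mcm5 to 0.92 for Top2a). Mki67, the standard proliferation marker, was 8.43, 5.81 and 5.60 in UUO samples and 5.30, 6.83 and 8.13 in folic acid samples, with 1 high array on each side (difference -0.14, SE 0.75, adjusted p 0.964). The cyclin-dependent kinase inhibitor gene Cdkn1b was higher in UUO samples (0.87, adjusted p 0.0461), the 1 call of 17 p53 targets and cell cycle inhibitors, and it was lost in 12 single-array omissions (up to 0.164). Of 21 unfolded protein response genes limma called 0, with 3 at an unadjusted p under 0.05. Among 18 immediate early and dissociation stress genes, Fos was called lower, at 8.01, 6.01 and 6.42 in UUO samples, against 9.06, 9.03 and 9.71 in folic acid samples (difference -2.45, SE 0.57, adjusted p 0.0387), a call lost in 10 single-array omissions (up to 0.142).

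Each group can also be read against uninjured kidney, with the caution that both comparisons share the same 3 uninjured arrays. Of the 173 genes called higher in UUO than in folic acid samples, 159 were called above uninjured kidney in UUO samples and 50 in folic acid samples, with median differences from uninjured kidney of 2.37 and 0.67. Of the 237 genes called lower, 163 were called below uninjured kidney in UUO samples; in folic acid samples 11 were called below it and 43 above it, and the medians were -1.64 and 0.18. The gene plots show several of these patterns side by side. Lox was 4.32 above uninjured kidney in UUO samples (adjusted p 0.000404) and 1.11 above it in folic acid samples (adjusted p 0.32). Acta2 was above uninjured kidney in both, by 3.73 in UUO samples and 2.42 in folic acid samples. Ctss was 1.45 above it in UUO samples (adjusted p 0.0736) and 5.21 above it in folic acid samples (adjusted p 0.000105). For Slc12a3 the difference from uninjured kidney was -4.74 in UUO samples (adjusted p 2.62e-05) and -0.67 in folic acid samples (adjusted p 0.428).

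**Figure D5:**
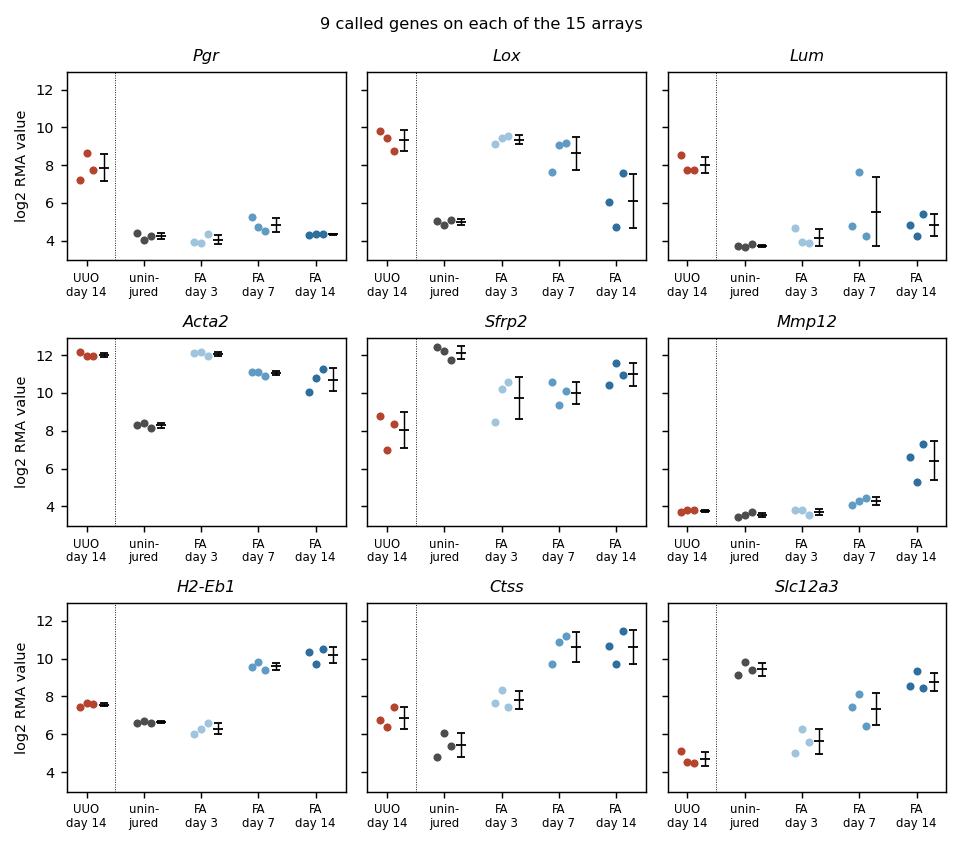
Levels (log2 RMA value, y axis) of 9 called genes on all 15 arrays, with UUO day 14 left of the dotted line and uninjured kidney and folic acid days 3, 7 and 14 right of it; black bars are the mean and SD of 3 arrays. Pgr is above 7 in the UUO arrays alone, Mmp12 is highest in folic acid day 14 samples, and Slc12a3 is at 4.45 to 5.13 in UUO samples, against 8.42 to 9.33 in folic acid day 14 samples.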

How the data were processed

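PDGFra-positive mouse kidney cells were profiled on 15 arrays, after RNA amplification and biotin labelling. The authors deposited log2 intensities for 45141 probe sets; the submitters' processing notes name RMA, affy and limma. They ran from 2.43 to 13.15 and were not normalized again. Scanner files and detection calls were not used here, so dim values are compressed, and the number of arrays limits the precision.

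By the platform annotation, 28898 probe sets name 1 gene, 551 several, and 15692 are unnamed here. Each of 17097 genes was represented by its probe set with the highest mean over all arrays. Testing required a level over an array's 40th percentile on 3 arrays or more, which left out 3574 genes.

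A model with a mean for each of the 5 groups was fitted by limma 3.58.1 (R 4.3.3; lmFit and eBayes; 10 residual degrees of freedom). UUO day 14 was set against folic acid day 14 by its 2-sided moderated test with Benjamini-Hochberg adjustment. The fit was tested on simulated data. Promoters came from RefSeq (GRCm38.p6), and plots were drawn with matplotlib 3.10.9.

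The comparison, the 37 gene lists (726 genes, 606 tested) and the naming rule were chosen with earlier results of these data known. The rule took the 12 highest and 12 lowest called genes without overlap between groups, leaving out provisional symbols. It added fixed genes (Pdgfra, Pdgfrb, Acta2, Mki67, Ccl2, Lyz2, Timp1, Fn1, Postn, Tnc, Col1a1, Col3a1) and, per list, up to 4 called genes with the smallest p, or 2 where none was called. Other genes, among them Tcf21, Fmod and Ccn5, were chosen after their values were seen. Alternatives covered normalization, centring, weights, filters, probe sets, thresholds, tubule and macrophage means as covariates, and leaving out arrays.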

Additional observations from a re-analysis of the deposited data

How the results depend on the processing

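Against 410 calls (173 higher, 237 lower), fitting only the 6 arrays compared gave 94 (25 higher, 69 lower), an adjusted p under 0.01 gave 79 (31 and 48), the proximal tubule covariate 13 (1 and 12), and leaving out folic acid arrays 7 and 8 gave 61 (10 and 51). Leaving out 1 of the 6 arrays gave 163 (without UUO array 11) to 698 (without folic acid array 9), with 76 to 260 higher and 87 to 438 lower. Leaving out 1 array of another group, an alternative chosen after seeing the data, gave 266 (without uninjured array 14) to 571 (without folic acid day 7 array 4). The macrophage covariate gave 458, of which 185 were among the 410. The cause of these changes was not tested, and the fits that leave arrays out also hold fewer samples.

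Of the 410 called genes, 409 kept their sign with the tubule covariate and 408 with the macrophage covariate, and all tested did in the other settings. Single uncalled genes were followed only where the naming rule took them, not for the other genes named in the text. Among the genes the rule took, these signs turned, C1qc being the one that had been called. With the tubule covariate the differences were -1.085 for Pdgfra, -0.87 for Pdgfrb, -0.139 for Col3a1, -0.292 for Timp1, -0.187 for Lama2, 0.043 for Mcm5 and 0.341 for Acadm. With the macrophage covariate they were 1.022 for Ccl2, 0.381 for C1qc, 0.546 for S100a8 and 1.02 for Csf3r. Without arrays 7 and 8 they were -0.617 for Pdgfra, -0.112 for Pdgfrb, -0.072 for Timp1 and 0.386 for Ccl2. Over omissions of 1 array, Timp1 ran from -0.252 to 0.617, Mki67 from -1.053 to 0.544, Ccl2 from -0.732 to 0.274 and Csf3r from -0.957 to 0.19. No paired analysis was possible because the running numbers of the samples differ between all groups. Of 72 further probe sets of the named called genes, 3 had the opposite sign (of Notch3, Nt5e and Vcan) and 0 were called in the opposite direction.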

Other observations

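Besides Pgr, the called genes included 2 higher hormone receptor genes picked here after their values were seen. Other called hormone receptor genes went either way: Lepr, given above, was higher, and Vdr, the vitamin D receptor gene, was lower (-1.64). Oxtr, the oxytocin receptor, was 6.57, 6.73 and 7.97 on the UUO arrays, against 4.57, 4.66 and 4.72 on the folic acid arrays (difference 2.44, SE 0.28, adjusted p 0.00164). Mc2r, the corticotropin receptor, was 4.72, 4.89 and 4.93 on the UUO arrays, against 3.36, 3.54 and 3.63 on the folic acid arrays (difference 1.33, SE 0.17, adjusted p 0.00309). All 6 Mc2r values lay below the array medians, so the gene was dim in both groups, and the folic acid values of Oxtr were below them too. Oxtr stayed called without folic acid arrays 7 and 8 together (2.37, adjusted p 0.0497).

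Of the 410 called genes 314 belonged to none of the lists. Among the 13 genes called in the fit that added each array's proximal tubule mean, Pgr was the 1 higher gene, and the 12 lower genes were Lilrb4a, Bcl2a1a, Ccl6, H2-Eb1, Clec7a, Fam111a, Ctss, Ccl9, Ly86, Cd14, H2-Aa and Mmp12. Of the 15692 probe sets not named in the annotation used here, 51 were called higher and 57 lower in UUO samples when all probe sets were tested together.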
